A study of Mus musculus with 6 samples.

Results

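Antisense RNA genes are transcription units that run on the DNA strand opposite to another gene. In epididymal white adipose tissue of male C57BL/6N mice, 151 genes that the GENCODE M21 annotation types as antisense had 30 or more reads summed over 6 animals. They are 151 of the 1292 antisense genes with any read, of 2959 annotated, and of 23492 genes with reads in all. They were chosen by their summed reads alone, so their levels are given as a description. At the lower limit 8 genes had 30 reads, among them Gm30270 and Gm10138, and 8 had 29 and were left out, among them Gm12473 and Gm17134. Each was set beside the protein-coding gene of the opposite strand that it overlaps by the most bases, called its sense partner here, and control mice were compared with mice kept in the cold.

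Full-length cDNA was sequenced without amplification on nanopores from 100 ng of poly-A RNA per animal. The fat pads came from mice of 20 weeks in a base housing of 22 to 24 °C with 12 h of light. The 3 control mice (ctrl 5, ctrl 6 and ctrl 10) had no cold exposure by their labels, and the 3 cold mice (cold 7, cold 12 and cold 16) were housed singly at 4 °C for 24 h. The labels do not say whether controls were housed singly, so housing alone and cold cannot be told apart. The labels name no allele beyond the strain and no agent.

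The libraries held 725273 to 1339385 reads on genes, so that 1 read is worth 0.747 to 1.38 CPM, the usual scaling of counts to the depth of a library, taken here over reads on genes. Adipoq, which encodes the fat cell hormone adiponectin, had 3449 ± 351 CPM in the control group and 3039 ± 338 in the cold group (mean ± SD over 3 mice, as in all such pairs of values). Ucp1, which uncouples respiration in brown and beige fat cells, had 2 reads in all libraries together. Cold 16 stood apart from the other 5 libraries: 12.9% of its reads lay on transcripts not typed protein-coding, against 10.1% to 10.6% elsewhere, and 4.38% on retained-intron transcripts, against 3.25% to 3.63%. Cell type markers also differed between the groups. The summed level of 15 epithelial markers was 37.3 to 75.7 CPM in controls and 175 to 288 in the cold, and 5 of the 6 tested were called higher (edgeR, adjusted p under 0.05). Krt7, which was not tested, went the other way by the mean, at 9.34 CPM in controls and 5.75 in the cold. Krt7, Krt19, Cldn4 and St14 overlapped between the groups. For 15 markers of the epididymal duct the ranges were 3.53 to 6.40 and 41.1 to 514 CPM, with Lcn9, Lcn10, Cst11, Adam28 and Gpx5 at 0 everywhere. The 1 tested, Cuzd1, was called higher. Cuzd1 alone made up 40.3 of 41.1 CPM in cold 12 and 38.3 of 43.4 CPM in cold 16. In cold 7 most of the sum came from Crisp1 (306 CPM) and Spink8 (125 CPM). Lcn5 and Rnase10 had reads in controls only. For 10 sperm and spermatid markers the ranges were 26.5 to 36.6 and 43.4 to 186 CPM, with 0 of 1 tested called. The 1 tested, Odf2, overlapped between the groups and made up most of the sum in 4 libraries. It had 34.1 of 35.2, 22.4 of 36.6 and 20.3 of 26.5 CPM in ctrl 5, 6 and 10, and 30.7 of 43.4 in cold 16. The separation of cold 16 from the controls in this sum therefore rests on Odf2. The 12 markers of mature adipocytes summed to between 81614 and 88487 CPM in controls and between 77325 and 85152 in the cold, with 1 of 12 called, which was higher. In 6 of the 12 (50%) the groups did not overlap, against 13.7% of all genes tested, and 4 had an unadjusted p under 0.05. These markers moved in both directions: mean Fabp4 was 18345 CPM in controls and 22818 in the cold, and mean Cfd 15536 and 10879. Of the tested markers of mesothelium (5), macrophages (9), endothelium (8), fibroblasts and adipocyte precursors (8), smooth muscle and pericytes (6) and brown or beige adipocytes (2), 0 were called by edgeR, with 2, 0, 1, 0, 2 and 1 at an unadjusted p under 0.05.

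Antisense transcripts are known to act in several ways. Their transcription can cross the promoter or the exons of the sense gene, their RNA can pair with the sense RNA, or they can merely share a promoter region that fires in both directions. Kcnq1ot1 and Airn are textbook cases, being long transcripts of the paternal chromosome that silence neighbouring imprinted genes, and Hotairm1 is a transcript of the Hoxa cluster known from myeloid cells. Many others in the annotation carry only a number for a name and have no described function.

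Where exons of both genes face each other, the antisense RNA carries the exact complement of part of the sense mRNA. The following stretches are shown because they belong to the pairs that the results below turn on. They come from GENCODE M21 transcripts on GRCm38 and are written 5′ to 3′ along the antisense RNA. Capitals mark the longest unbroken run opposite coding bases of the partner, or opposite any exon base of the partner for Gm10687 and Snhg9, and small letters are up to 15 flanking bases of the antisense transcript.
A530020G20Rik opposite Slc44a3: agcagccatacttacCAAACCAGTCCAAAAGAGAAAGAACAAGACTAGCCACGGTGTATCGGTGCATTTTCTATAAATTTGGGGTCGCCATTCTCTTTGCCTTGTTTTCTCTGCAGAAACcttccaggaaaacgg
Gm14964 opposite Nrxn2: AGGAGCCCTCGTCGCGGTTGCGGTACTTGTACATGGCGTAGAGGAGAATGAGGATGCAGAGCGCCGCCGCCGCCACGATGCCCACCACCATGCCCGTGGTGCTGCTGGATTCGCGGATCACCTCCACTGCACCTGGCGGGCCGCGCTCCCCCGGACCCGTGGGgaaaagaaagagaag
Gm45507 opposite Bnip3: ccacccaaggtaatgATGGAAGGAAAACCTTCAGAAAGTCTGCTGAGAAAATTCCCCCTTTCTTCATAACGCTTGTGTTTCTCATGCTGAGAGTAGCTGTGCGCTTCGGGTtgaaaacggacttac
Kcnq1ot1 opposite Kcnq1: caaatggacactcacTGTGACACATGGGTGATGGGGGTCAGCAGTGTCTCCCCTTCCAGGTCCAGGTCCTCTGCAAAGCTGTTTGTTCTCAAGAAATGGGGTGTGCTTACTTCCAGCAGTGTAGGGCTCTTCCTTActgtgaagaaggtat
Gm10687 opposite Mcam: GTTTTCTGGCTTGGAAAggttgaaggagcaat
Snhg9 opposite Rps2: GCCGAAGCCGCGCCctacaccagccggaa

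The run of 105 bases opposite Slc44a3 (chr3:121531667-121531771, plus strand) is flanked on both sides by bases that are outside the exons of Slc44a3, so A530020G20Rik runs unspliced across a coding exon of its partner and into both introns. Kcnq1ot1 does the same across 121 coding bases of Kcnq1 (chr7:143261256-143261376, minus strand). The 163 bases of Gm14964 opposite Nrxn2 (chr19:6531849-6532011, minus strand) are the 5′ end of that transcript, and the 96 bases of Gm45507 opposite Bnip3 (chr7:138894417-138894512, plus strand) are a spliced exon. Gm10687 and Mcam face each other over 17 exon bases (chr9:44134469-44134485, minus strand), and Snhg9 and Rps2 over 14 (chr17:24719952-24719965, minus strand). Each capital run was found as an exact complement in 1 or more annotated transcripts of the partner. The authors' use of strand in counting is not given in the sources used here, so for all pairs with facing exons a read from such a stretch cannot be assigned to one gene with certainty.

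**Figure D1:**
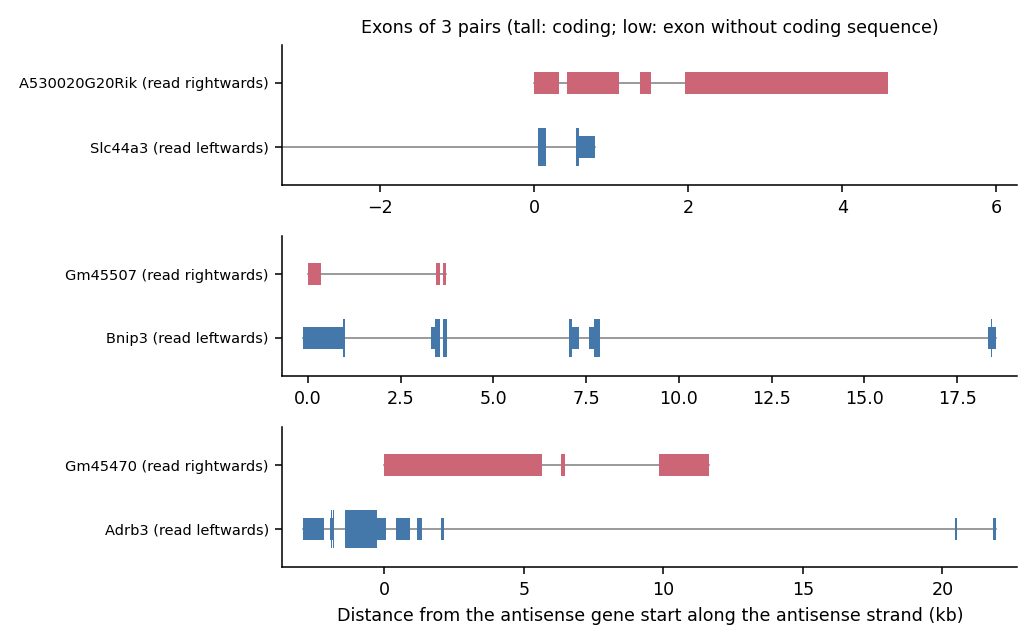
Exons of 3 antisense genes (red) and their sense partners (blue), drawn to scale by distance in kb from the start of the antisense gene along its own strand; tall boxes are coding and low boxes are exons without coding sequence. A530020G20Rik starts inside its partner and leaves it past the partner's own start, while Gm45507 and Gm45470 lie wholly within Bnip3 and Adrb3; Slc44a3 continues beyond the left edge.

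Facing exons were the usual arrangement. Of the 151 genes, 114 shared exon bases with their partner, 27 lay opposite introns of the partner alone, and 10 overlapped no protein-coding gene on the other strand. Where exons faced each other, a median of 18.7% of the antisense exon bases were covered by partner exons, and in 74 genes some of these were coding. In 7 genes at least 90% of the exon bases were covered: Gm42846 in Mxd4, Gm38287 in Nrarp, Gm20659 in Dusp3, Gm45507 in Bnip3, Gm44987 in Gga2, A630072M18Rik in Rsbn1l and Gm37401 at the end of Rhoa. By position, 47 genes lay within the partner, 45 met it tail to tail, 42 head to head and 7 contained it. In 16 of the head-to-head pairs the starts lay within 500 bases of each other. A single partner was found for 112 genes and several for 29.

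Of the 10 genes without a partner, Gm11525 overlapped a non-coding gene on the opposite strand, D030028A08Rik, and the other 9 overlapped none. The third most read antisense gene, 2610016A17Rik, lies 158 bases from Dmrt2, which encodes a DM-domain transcription factor. Gm4285 lies 129 bases from Tpt1, Gm13375 lies 173 bases from Arhgap21, and 2810001G20Rik lies 16 bases from Cox10, a haem biosynthesis enzyme. Gm12280 and Chrna1os were farther away, 8103 bases from Trpv2 and 4512 bases from Chrna1.

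Reads were concentrated in few genes. The 151 genes held 16304 of 22016 antisense reads (74.1%), and the 15 most read held 40.5% of these 16304. The median gene had 58 reads over all mice, 47 had 100 or more, and 148 were read in every library. The most read pair of genes, Gm20632 and Gm20633, are single-exon genes on chromosome 3 that each contain a gene for histone H2A, Hist2h2aa2 and Hist2h2aa1. Gm20632 had 97, 171 and 167 reads in ctrl 5, 6 and 10 and 72, 146 and 93 in cold 7, 12 and 16. Gm20633 had 109, 157 and 170 reads in the controls and 68, 145 and 92 in the cold. Both histone genes are near-identical copies with the same 390-base complement, so the division of reads among these 4 genes is uncertain.

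The order differed per length, that is, in CPM per kb of annotated transcript. The cDNA was sequenced at full length, and whether its read counts grow with transcript length was not tested. Values per kb therefore favour short transcripts if they do not. The snoRNA host gene Snhg9 had 322 ± 82.8 CPM per kb (SD, n = 6), 2610016A17Rik 205 ± 25.3, Hotairm1 181 ± 54.2 and Gm15417, which faces the first part of the transcription factor gene Zbtb7b head to head, 124 ± 20.4. The SD ranges of Snhg9 and 2610016A17Rik do not meet, whereas those of 2610016A17Rik and Hotairm1 do. Kcnq1ot1 was low on this scale, at 0.498 ± 0.153 CPM per kb, because its annotated transcript is 93092 bases long. Adipoq had 2514 ± 296 on the same scale. Reads came from 1 annotated transcript in 74 genes and from several in 77. Gm15417 was among the latter, with 39.6% of its reads on the leading one of 4 transcripts.

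**Figure D2:**
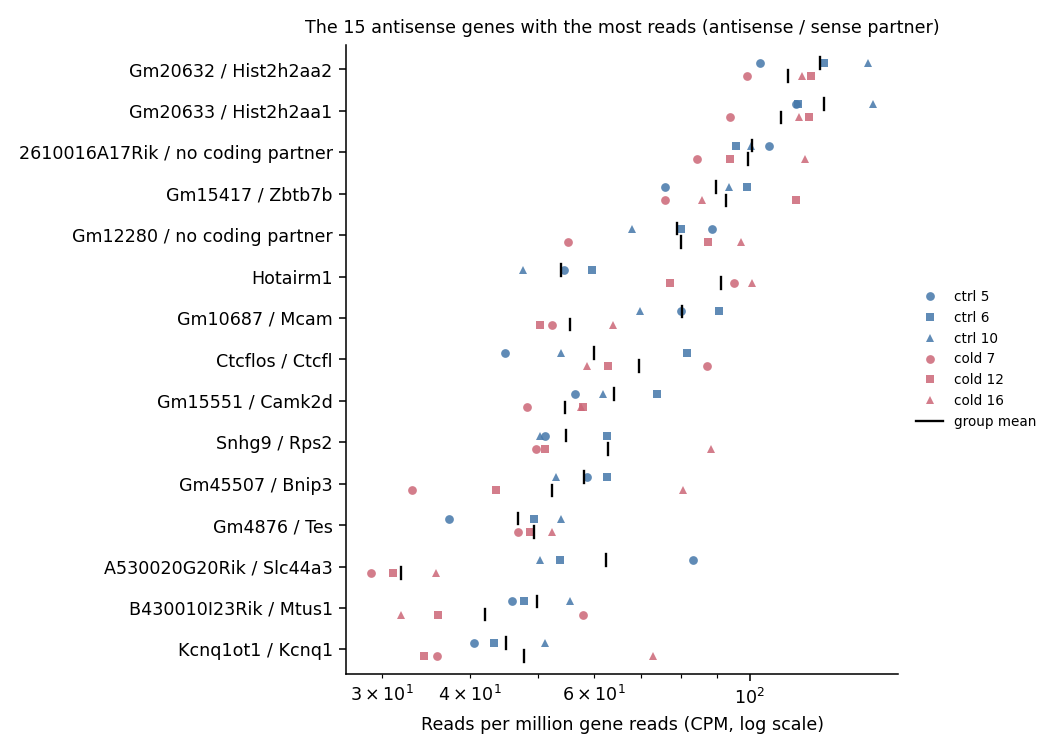
CPM (log axis) of the 15 antisense genes with the most reads, with the sense partner after the stroke where one is given; blue points are control mice, red points cold mice and black bars group means. For Hotairm1, Gm10687 and A530020G20Rik the groups are apart, and for Gm20632, with 126 ± 22.0 CPM in controls and 114 ± 12.5 in the cold, they overlap.

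Antisense RNA was a minor part of most pairs, but not of all. In the 118 pairs whose partner also had 30 or more reads, the antisense gene took a median of 23.2% of the reads of the pair (mean of 6 mice), with a range of 0.854% to 91.4%. Per kb of transcript the median was 36.6%. In 20 pairs the antisense gene had the greater part of the reads by the mean, and in 11 of these in every mouse. Per kb of transcript it had the greater part in 41 of the 118, a count that rests on the division by length and carries the limit given above. The highest share was that of Ctcflos over Ctcfl, a testis paralogue of the insulator protein CTCF, with 42, 109 and 61 antisense reads in the controls, 63, 75 and 46 in the cold, and 2 to 11 reads of Ctcfl per mouse. Gm20632 held 84.5% of the reads shared with Hist2h2aa2, a division that is uncertain as given above. Gm29773 held 77.5% of the reads shared with the nuclear pore gene Nup133, and Gm26531 76.8% of those shared with the tubulin glutamylase gene Ttll5. Gm4876 held 76.2% of those shared with Tes, and Brip1os 74.0% of those shared with Ints2. Sense genes with many reads stood at the other end: Gm45091 held 0.854% of the reads shared with Cebpa, a master regulator of fat cell differentiation, and Gm28156 held 1.71% of those shared with the amine oxidase gene Aoc3.

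**Figure D3:**
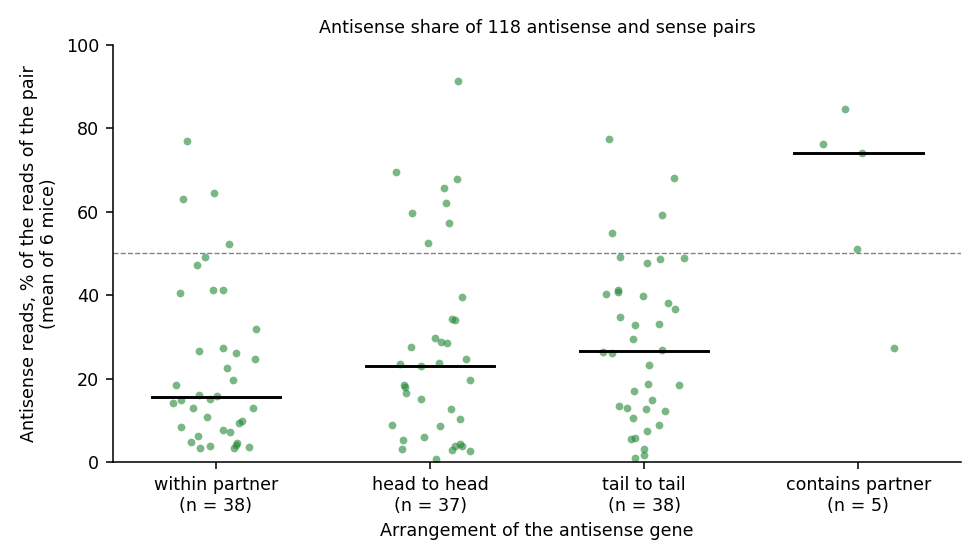
Antisense reads as a percentage of the reads of the pair, as the mean of 6 mice, for 118 pairs by arrangement; each point is a pair, black bars are medians, the dashed line marks equal reads. Medians were 15.5% within the partner, 23% head to head, 26.6% tail to tail and 74.0% in the 5 pairs where the antisense gene contains its partner.

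Promoter windows of the genes were also looked at. RefSeq promoter sequences on GRCm38.p6, from 250 bases before to 50 after the start, existed for 76 of the 151 genes, and in 42 the start lay within 100 bases of the GENCODE start. The ratio of observed to expected CpG dinucleotides had a median of 0.701 in these 42, and 0.384 in all 32851 windows of the table. Among the 42, the median was 0.513 in the 11 head-to-head genes and 0.750 in the other 31. The 32851 windows were not limited to genes with reads in this fat. Differences from them therefore cannot be told apart from the choice of genes by reads. The motif GGGCGG, on either strand, was present in 57.1% of the 42 and in 35.7% of all windows. TATAAA was present in 14.3% against 13.6% and CCAAT in 33.3% against 37.4%, also on either strand. The window of Gm10687, which covers the start of Mcam, held GGGCGG 5 times and no TATAAA or CCAAT, with a CpG ratio of 0.720. These matches are letters in a window and not binding sites.

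In the cold, no antisense gene was called. Of the 151, 73 passed the filter on low counts and were tested, and 78 were not tested. By the quasi-likelihood test of edgeR with Benjamini-Hochberg adjustment over 9772 genes, 0 of 73 passed the threshold of 0.05, beside 64 of all tested genes (0.655%), 53 higher (0.542%) and 11 lower (0.113%) in the cold. DESeq2 and limma-voom also called 0. At an unadjusted p under 0.05 there were 12 of 73 (16.4%), against 8.43% of all genes tested. In 10 of the 73 (13.7%) the CPM of the groups did not overlap, the same share as in all genes (13.7%). The median log2 fold change, cold minus ctrl, was 0.01 in the 73 and 0.01 in all genes, with 39 above and 34 below 0. Genes that passed the filter do not stand for the other 78. Some alternatives made calls: 2 genes (Hotairm1 and A530020G20Rik) with the X1 files alone, 1 (Gm13375) without cold 7, and 4 (Hotairm1, A530020G20Rik, Gm14964 and Gm45470) with no filter on low counts.

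The summed level of the 151 genes overlapped between the groups. It was 2564, 2738 and 2627 CPM in ctrl 5, 6 and 10, and 2494, 2607 and 2987 in cold 7, 12 and 16. Only cold 16 lay above all controls. The difference of means was 53.1 CPM (exact two-sided permutation p = 0.9, smallest possible 0.1), and -92.2 without cold 16 (exact permutation p = 0.4).

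Hotairm1 had the smallest p. It had 51, 80 and 54 reads in ctrl 5, 6 and 10 and 69, 92 and 79 in cold 7, 12 and 16, which is 53.9 ± 6.05 against 91.1 ± 12.4 CPM (SD, n = 3). All cold mice lay above all controls. The log2 fold change was 0.76 ± 0.18 (SE, edgeR adjusted p = 0.0519). Other antisense genes of the Hox clusters, chosen after their values were seen, had overlapping groups: Hoxd3os1 had 26.0 ± 5.91 and 34.1 ± 6.56 CPM, Hoxb3os 18.7 ± 4.58 and 24.7 ± 2.98, and Hoxaas3 9.78 ± 2.82 and 15 ± 8.26. Gm15050 in Hoxa3 had 10.2 ± 2.34 and 8.85 ± 1.05 CPM and was not tested. Hoxd3 had 1 to 4 reads per mouse, fewer than Hoxd3os1 in each.

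A530020G20Rik (chromosome 3, 121531619 to 121536206) had the smallest p among genes lower in the cold. It starts head to head with Slc44a3, a gene of the choline transporter-like family, and had 78, 72 and 57 reads in the controls and 21, 37 and 28 in the cold. The groups did not overlap, at 62.4 ± 18.1 and 31.9 ± 3.49 CPM, and the log2 fold change was -0.92 ± 0.22 (SE, edgeR adjusted p = 0.0713). Slc44a3 itself had 25, 31 and 24 reads in the controls and 14, 30 and 17 in the cold (23.7 ± 2.78 and 22.1 ± 2.94 CPM, log2 fold change -0.04 ± 0.25). The antisense share of the pair was 75.7%, 69.9% and 70.4% in the controls and 60.0%, 55.2% and 62.2% in the cold.

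Gm45470 and Adrb3 were both lower in the cold mice. Adrb3 encodes the β3-adrenergic receptor, through which noradrenaline drives lipolysis in fat cells, and Gm45470 (chromosome 8, 27228686 to 27240332) lies within its annotated span, facing it over exon bases that are not coding. Gm45470 had 38, 43 and 62 reads in ctrl 5, 6 and 10 and 13, 28 and 17 in cold 7, 12 and 16, with no overlap. That is 42.4 ± 11.4 against 21 ± 2.84 CPM (log2 fold change -0.95 ± 0.26 SE, edgeR adjusted p = 0.133). Adrb3 had 924, 898 and 1397 reads in the controls and 326, 846 and 501 in the cold, and its CPM overlapped between ctrl 6 and cold 12. Its log2 fold change was -0.65 ± 0.19 (SE, edgeR adjusted p = 0.178). The antisense share was 4.26 ± 0.310% in controls and 3.44 ± 0.344% in the cold. In bulk tissue, fewer cells of a type and less RNA per cell cannot be told apart. The adipocyte marker sums given above overlapped between the groups, but in 6 of those 12 markers, some higher and some lower, the groups did not overlap.

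Gm10687 and Mcam form a head-to-head pair whose starts are 16 bases apart. Mcam encodes CD146, an adhesion molecule of blood vessel cells. Gm10687 had 75, 121 and 79 reads in the controls and 38, 60 and 50 in the cold, or 80.0 ± 10.3 against 55.5 ± 7.30 CPM with no overlap (log2 fold change -0.52 ± 0.18 SE, edgeR adjusted p = 0.344). Mcam had 375 ± 57.7 and 309 ± 23.8 CPM, with overlap, and a log2 fold change of -0.26 ± 0.14. The antisense share was 17.7 ± 2.69% in controls and 15.2 ± 0.726% in the cold.

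Gm14964 and Frmd8os, both on chromosome 19, had a higher CPM in all cold mice than in all controls. Gm14964, which lies within the synaptic adhesion gene Nrxn2, had 9, 16 and 14 reads in the controls and 16, 28 and 22 in the cold (11.3 ± 1.49 and 24.5 ± 3.16 CPM, log2 fold change 1.12 ± 0.29 SE, edgeR adjusted p = 0.102). Frmd8os had 4, 11 and 10 reads and 8, 21 and 14 (7.10 ± 2.47 and 15.5 ± 3.88 CPM, 1.13 ± 0.37, edgeR adjusted p = 0.315). Of their partners, Nrxn2 had a log2 fold change of -0.05 ± 0.40 and Frmd8 of -0.33 ± 0.25. The share of Gm14964 in its pair was 45.0%, 64.0% and 50% in the controls and 76.2%, 65.1% and 78.6% in the cold.

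Gm37401 and B430219N15Rik had their highest level in the library that stood apart, cold 16. Gm37401 ends inside the last part of Rhoa, a GTPase of the actin cytoskeleton, with 93.4% of its exon bases opposite Rhoa exons. It had 25, 51 and 39 reads in the controls and 35, 50 and 58 in the cold, with the highest CPM in cold 16, and a log2 fold change of 0.70 ± 0.23 (SE, edgeR adjusted p = 0.315) that was 0.44 without cold 16. Rhoa had 439 ± 14.6 and 349 ± 75.1 CPM without overlap (-0.30 ± 0.15), lowest in cold 16 at 264 CPM. B430219N15Rik in Ginm1 had 26.1 ± 9.93 and 45.2 ± 17.3 CPM with overlap, and its log2 fold change of 0.76 ± 0.28 (SE, edgeR adjusted p = 0.397) was 0.43 without cold 16.

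The rest of the genes with the smallest p had few reads. Gm26531, opposite introns of Ttll5, had 18.8 ± 3.60 and 32 ± 5.2 CPM, with 14 to 26 reads per control mouse and 25 to 32 per cold mouse (log2 fold change 0.74 ± 0.26 SE). Among those lower in the cold, 4930566F21Rik had 16.1 ± 4.49 and 6.66 ± 4.67 CPM (-1.17 ± 0.43), and its partner 4930548H24Rik had 12.2 ± 1.47 and 7.48 ± 2.45 (-0.67 ± 0.38), neither with overlap. Gm10851, opposite introns of the glycolysis regulator gene Pfkfb3, had 24.4 ± 0.430 and 16.1 ± 4.95 CPM without overlap (-0.51 ± 0.28), beside 493 ± 63.6 and 457 ± 41.9 for Pfkfb3. Gm13375, which has no coding partner, had 22, 32 and 19 reads in the controls and 14, 10 and 2 in the cold (-1.11 ± 0.41 SE). Cold 16 had the lowest value of Gm13375 and cold 7 overlapped with the controls.

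**Figure D4:**
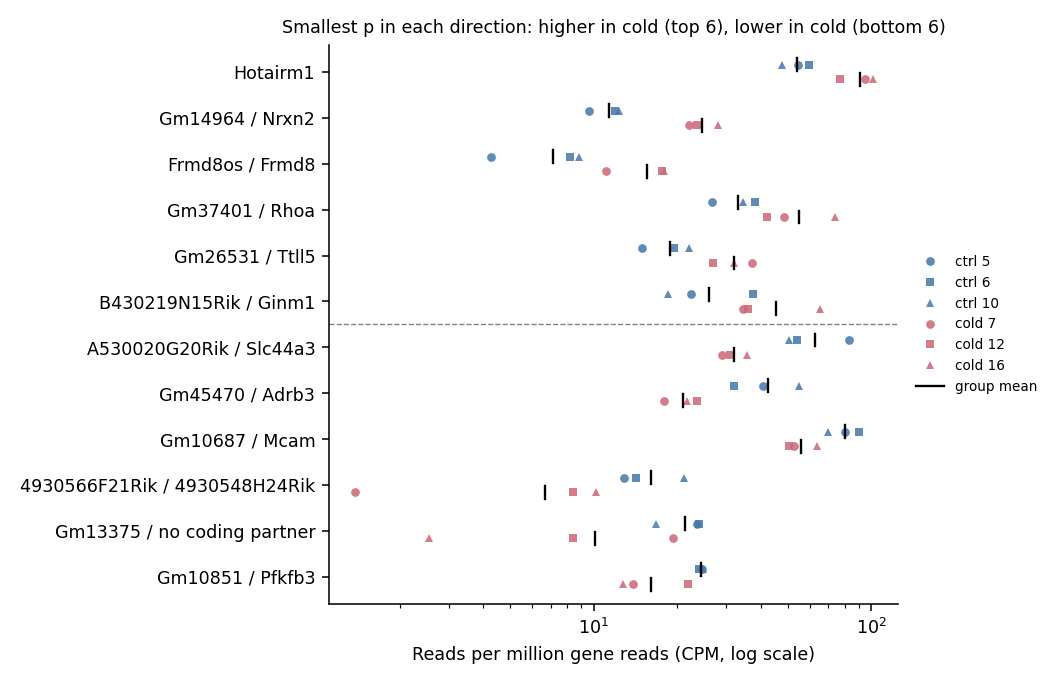
CPM (log axis) of the 6 antisense genes with the smallest p in each direction, above the dashed line those higher and below it those lower in the cold; blue points are control mice, red points cold mice and black bars group means. Groups are apart in 10 of the 12 and overlap for B430219N15Rik and Gm13375. The 12 were picked by p in this same comparison, and over all 73 tested the groups are apart in 10 (13.7%), as in 13.7% of all genes.

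Other antisense genes with many reads had overlapping groups. Gm15417 had 89.5 ± 12.3 and 92.7 ± 21.3 CPM, beside 69.7 ± 11.6 and 66.4 ± 18.1 for Zbtb7b. Gm12280 had 78.8 ± 10.3 and 79.8 ± 21.9 CPM, 2610016A17Rik 101 ± 5.55 and 99.4 ± 18.6, and Ctcflos 60.0 ± 19.1 and 69.5 ± 15.2. Gm15551 in an intron of the kinase gene Camk2d had 64.1 ± 8.92 and 54.5 ± 5.44 CPM, and B430010I23Rik in Mtus1 49.7 ± 5.16 and 42 ± 14. Gm4876 had 46.8 ± 8.52 and 49.3 ± 2.81 CPM, while Tes, a focal adhesion protein gene, had 17.2 ± 4.31 and 12.9 ± 1.23 without overlap.

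The imprinted pairs had overlapping groups. Kcnq1ot1 had 38, 58 and 58 reads in the controls and 26, 41 and 57 in the cold (45.0 ± 5.53 and 47.7 ± 21.8 CPM), the highest in cold 16 at 72.8 CPM. Kcnq1, a potassium channel gene that Kcnq1ot1 is known to accompany in cis, had 1 to 5 reads per mouse. Airn, chosen after its values were seen, had 4 to 9 reads per mouse, and Igf2r, the growth factor receptor gene that it overlaps and is known to silence on the paternal copy, had 208 ± 15.2 and 206 ± 17.5 CPM.

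Snhg9 and Gm45507 also had their highest level in cold 16. Snhg9 had 48, 84 and 57 reads in the controls and 36, 61 and 69 in the cold, which was 49.6, 51.2 and 88.1 CPM in cold 7, 12 and 16. Rps2, a protein of the small ribosomal subunit, had 512, 516 and 224 CPM in the same cold mice, so its lowest value was in the library with the highest Snhg9. Gm45507 had 33.1, 43.6 and 80.5 CPM in cold 7, 12 and 16 against 58.1 ± 4.91 in controls, while Bnip3, a mitophagy receptor gene, had 489, 548 and 364 CPM in those cold mice and 567 ± 71.1 in controls. The antisense share of this pair was 18.1% in cold 16 and 6.33% to 9.84% in the other 5 mice.

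The same library led many pairs. Of the 118 pairs, cold 16 had the highest antisense share of the 6 mice in 41, and the other mice in 11 to 22 each. Among the 7 pairs with at least 90% of the antisense exon bases covered by the partner, cold 16 had the highest share in 6. The median share over pairs was 23.5% in cold 16 and 18.7% to 22.4% in the others. The larger part of non-coding transcripts in cold 16 stands beside these values, and its part in the pair results was not tested.

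More sense partners lay below 0 than above, and none was called. There were 141 partners, 134 with reads, of which 107 were tested. edgeR called 0 of 107, as did DESeq2 and limma-voom, and 13 (12.1%) had an unadjusted p under 0.05. The median log2 fold change was -0.12, with 37 above and 70 below 0, beside a median of 0.01 in all genes. In 25 (23.4%) the CPM of the groups did not overlap, against 13.7% of all genes.

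The smallest p among partners was that of Lsr, the lipolysis-stimulated lipoprotein receptor, which is also known from cell contacts of epithelia. Lsr had 11, 15 and 14 reads in the controls and 19, 29 and 16 in the cold, or 11.8 ± 0.579 against 23.7 ± 2.94 CPM without overlap (log2 fold change 1.03 ± 0.28 SE, edgeR adjusted p = 0.151). Its antisense gene Gm4673 had 18.2 ± 1.84 and 14.8 ± 6.59 CPM, so that the antisense share was 59.3%, 60.5% and 62.2% in the controls and 44.1%, 39.6% and 27.3% in the cold. The summed epithelial markers, higher in all cold mice as given above, stand beside this difference, and their part in it was not tested.

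Other partners higher in the cold were Ivns1abp, a protein gene of the Kelch family, with 113 ± 5.80 and 148 ± 27.4 CPM (0.43 ± 0.15), Pdxk, the vitamin B6 kinase, with 34 ± 13.3 and 50 ± 7.68 (0.64 ± 0.24), and Gm20498 with 15.4 ± 5.94 and 24.4 ± 3.25 (0.69 ± 0.30). Ivns1abp did not overlap between groups, and its antisense gene Gm10138 had 3, 3 and 3 reads in the controls and 5, 7 and 9 in the cold. Gm28370, opposite introns of Gm20498, had 5.05 ± 1.44 and 5.66 ± 3.22 CPM. The antisense gene of Pdxk, 4921516A02Rik, had 18.8 ± 7.92 and 31.2 ± 11.5 CPM (0.80 ± 0.31). Lower in the cold without overlap were the transporter gene Slco2b1, with 85.2 ± 9.45 and 56.2 ± 5.10 CPM (-0.58 ± 0.17), the peptide-loading gene Tapbp, with 220 ± 20.6 and 158 ± 11.9 (-0.45 ± 0.14), and the phosphatase gene Dusp3, with 278 ± 9.80 and 216 ± 33.6 (-0.34 ± 0.14). Their antisense genes Gm15635, Gm19412 and Gm20659 had 1 to 16 reads per mouse and were not tested.

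Antisense and sense fold changes shared a sign in part of the pairs. Of 50 pairs with both genes tested, 24 had log2 fold changes of the same sign, 5 both above and 19 both below 0. In 20 the antisense gene was above 0 and the partner below, and in 6 the reverse. Pearson's r across the 50 pairs was 0.05 and Spearman's rho -0.06, where both genes of a pair come from the same libraries and pairs are not independent replicates. The log2 ratio of antisense to sense reads did not overlap between groups in 20 of 118 pairs, 13 higher and 7 lower in the cold, beside 11.2% of 1099 other opposite-strand gene pairs. Leaving out 1 mouse, so that 2 are set against 3, gave 28 to 30 such pairs for each control and 34, 35 and 31 without cold 7, 12 and 16; the 11.2% is for 3 against 3. After Benjamini-Hochberg adjustment over the pairs the smallest exact permutation p was 0.59, from an unadjusted p of 0.1, the smallest that 3 against 3 mice allow.

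**Figure D5:**
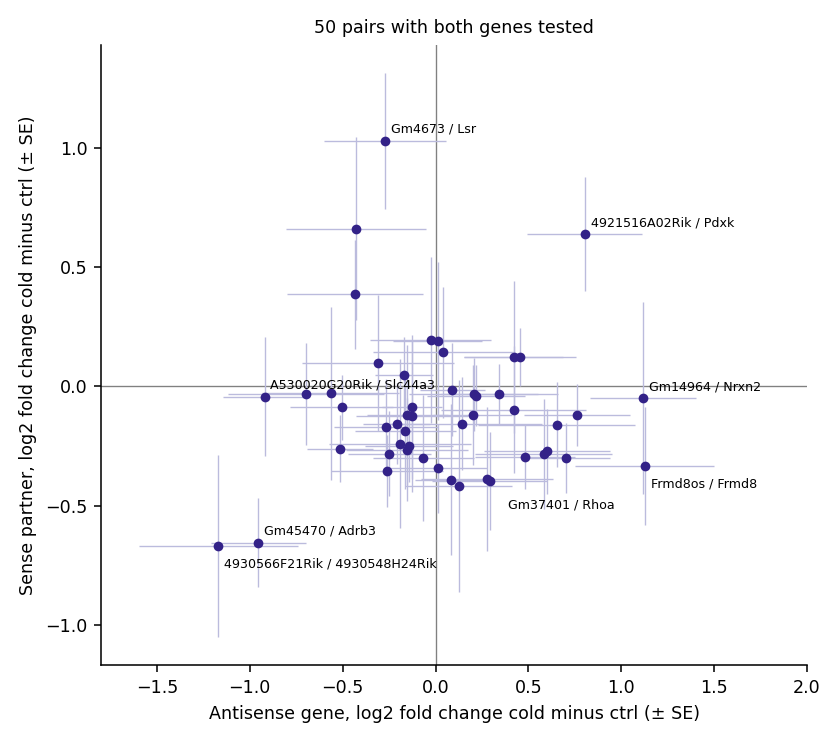
Log2 fold change, cold minus ctrl, of the antisense gene (horizontal) and of its sense partner (vertical) in the 50 pairs with both tested, with SE as bars. Points lie in all quadrants: 5 with both above 0, 19 with both below, 20 with the antisense gene alone above and 6 with the partner alone above.

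Pairs at further genes of fat cells, chosen after their values were seen, had overlapping antisense levels. A730085K08Rik, which meets the lipase activator gene Abhd5 tail to tail, had 7.80 ± 2.64 and 12.3 ± 4.88 CPM, beside 97.4 ± 19.3 and 117 ± 27.8 for Abhd5. For 4930458D05Rik, head to head with the acyltransferase gene Gpat3, the values were 7.29 ± 1.03 and 6.91 ± 3.71 CPM, beside 139 ± 16.2 and 109 ± 29.4 for Gpat3. Gm45091 had 3 to 12 reads per mouse, while Cebpa had 683 ± 18.7 and 732 ± 47.2 CPM without overlap (log2 fold change 0.12 ± 0.12). Among known long non-coding genes, Tug1 had 28.2 ± 3.39 and 27.6 ± 5.23 CPM and Gt(ROSA)26Sor, the locus used for mouse transgenes, 34.3 ± 6.51 and 27.6 ± 12.5.

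Genes that bind, edit or degrade double-stranded and antisense RNA did not pass the test either. Of 27 symbols listed, 26 were found with reads and 22 were tested. The symbol not found, Skiv2l2, is an earlier name of Mtrex, which is among the 26. edgeR, DESeq2 and limma-voom each called 0, and 0 had an unadjusted p under 0.05 by edgeR. The median log2 fold change was 0.05, with 13 above and 9 below 0. Mavs, which relays signals of double-stranded RNA sensors, had 33.0 ± 8.90 and 41.9 ± 2.15 CPM, and the sensor gene Ifih1 had 15.4 ± 1.74 and 11.3 ± 5.73. The decay helicase gene Upf1 had 55.5 ± 7.03 and 65.6 ± 1.85 CPM without overlap. In 2 of the 22 tested (9.09%), Upf1 among them, the groups did not overlap, against 13.7% of all genes tested.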

How the data were processed

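Poly-A RNA of epididymal fat was sequenced as direct cDNA on nanopores in 3 control and 3 cold mice. The files the authors deposited hold raw counts of reads for each annotated transcript, 2 files per mouse (X1 and X2). Reads were aligned with minimap2 to GRCm38, per the submitters' processing notes. Not given in the sources used here are the counting tool, its use of strand and its handling of reads that match more than 1 transcript. The 2 files of a mouse differed by about the sampling noise (chi-square per degree of freedom 1.02 to 1.06) and were summed as 1 sample. Of 61729 transcripts, 61538 were found in GENCODE M21 and summed to 23492 genes.

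Genes were tested with edgeR 4.0.16 (R 4.3.3; quasi-likelihood, TMM, filterByExpr with minimum count 10, Benjamini-Hochberg over all genes tested, threshold 0.05). DESeq2 1.42.0 and limma-voom 3.58.1 were alternatives, besides other filters, scalings, single files and leaving out each mouse. Where a single value per mouse was compared, an exact two-sided permutation test was used. The log2 ratio of a pair took a pseudocount of 0.5 reads. Of the tests, edgeR alone was also run on simulated counts. The outcome is not given here, and no statement rests on it. CPM carries counting error at every level, and relative to the value it is largest where reads are few. A count of 0 allows 3 reads, or 2.24 to 4.14 CPM.

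The genes and lists were chosen with earlier results of these data known. Named are the 15 antisense genes with the most reads, 6 in each direction by smallest p, the 6 tested with the highest share of their pair, 4 partners in each direction by smallest p, the 4 genes of the double-stranded RNA list with the smallest p, and Adipoq and Ucp1. Of the 4 genes of the double-stranded RNA list, 1 is not reported here. Other genes were chosen after their values were seen. Sequence is from GENCODE M21 and RefSeq on GRCm38.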

Additional observations from a re-analysis of the deposited data

How the results depend on the processing

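Counts of calls moved with the filter and the depth. Of all genes, 64 were called, 371 with no filter on low counts, 38 with the X2 files alone and 35 to 199 when a mouse was left out (106 without ctrl 5, 199 without cold 7, 35 without cold 12). Antisense genes called were 0, 4 with no filter (Gm14964, Hotairm1, A530020G20Rik and Gm45470), 2 with the X1 files alone (Hotairm1 and A530020G20Rik) and 0 to 1 when a mouse was left out (Gm13375 without cold 7, adjusted p = 0.0195 by edgeR, with a range of 0.0195 to 1.00 over the alternatives). Partners called were 0, 1 with no filter (Adrb3) and 0 to 1 when a mouse was left out (Adrb3 without ctrl 6). With no filter, all 23492 genes were tested. The cause of the calls under these alternatives was not tested. For Hotairm1 the edgeR, DESeq2 and limma-voom adjusted p ranged from 0.00755 to 0.755 over the alternatives and the log2 fold change from 0.44 to 1.00. The double-stranded RNA list had 0 calls under each alternative.

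The summed antisense level differed by 53.1 CPM, and by -92.2 to 154 when a mouse was left out, negative without cold 16. Pairs without overlap of the read ratio numbered 20, and 28 to 35 when a mouse was left out, where 2 against 3 mice separate more easily; the other alternatives gave as few as 14.

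Among the fold changes of the named genes, 485 values kept their direction and their side of the threshold, 9 passed it under an alternative and 26 changed sign. These were Gm20632 with X2 alone (0.058), and 2610016A17Rik scaled by library size (-0.0157), with no filter (-0.0183), with X2 (-0.13), by limma-voom (-0.0074) and on leaving out a mouse (-0.14 to 0.079). They were further Gm15417 with X1 (-0.0286), Snhg9 with X1 (-0.0012), Kcnq1ot1 with X2 (-0.12) and limma-voom (-0.0099), Gm29773 with X2 (-0.15) and limma-voom (-0.0102), and Brip1os with X2 (-0.0499). On leaving out a mouse the ranges were -0.13 to 0.19 for Gm15417, -0.066 to 0.23 for Gm12280, -0.10 to 0.35 for Snhg9, -0.54 to 0.0462 for Gm45507, -0.0503 to 0.19 for Gm4876, -0.34 to 0.30 for Kcnq1ot1, -0.38 to 0.45 for Gm29773 and -0.13 to 0.33 for Brip1os.

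No paired analysis was possible because the mouse numbers of the control and cold groups are those of different animals. With 3 mice per group, 78 of 151 antisense genes had too few reads to be tested. The use of strand in counting is not given, so where exons face each other a read cannot be assigned to one gene with certainty.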
